A study of Ovis aries with 6 samples.

Results

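Transcripts of 4 subunits of the sodium pump were followed in the choroid plexus of ewes: the beta subunits ATP1B1, ATP1B2 and ATP1B3 and the small regulatory subunit FXYD1. They were taken by their symbols from a table of raw read counts, which lists 33609 genes, and all 4 had enough counts to be among the 18019 genes tested. The choroid plexus is the tissue in the brain ventricles whose epithelium secretes cerebrospinal fluid. PolyA RNA was sequenced in 6 pools, 2 per group: thyroidectomised ewes kept in long days (THX), control ewes kept in long days (Long) and control ewes kept in short days (Short). The design text gives 8 ewes per group, 7 in THX, and each pool mixed equal amounts of RNA from 3 to 4 ewes. Neither the age and breed of the ewes nor the times spent in each day length and after thyroidectomy are given in the sources used here. Because ewes were pooled, p-values measure the spread between pools and not between ewes.

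The sodium pump, or Na,K-ATPase, is a membrane enzyme that burns ATP to push sodium out of the cell and draw potassium in. Its alpha subunit carries out transport, its beta subunit brings the alpha subunit to the cell surface and takes part in adhesion between cells, and an FXYD protein tunes its affinity for ions. In the choroid plexus the pump lies in the apical membrane, facing the cerebrospinal fluid, where its sodium export drives fluid secretion. Loss of the thyroid removes thyroid hormone, and day length sets the breeding season of sheep.

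The pools held 48282883 to 82100653 counts. Levels are given in CPM, counts scaled to a common library total with TMM factors, and differences are log2 differences with SE from edgeR's two-sided quasi-likelihood test, adjusted by the Benjamini-Hochberg method over all tested genes with a threshold of 0.05. Since CPM are not corrected for transcript length, levels are compared between pools and never between genes. Transthyretin (TTR), the defining secreted protein of the choroid plexus epithelium, took 8.90% to 13.3% of all counts in a pool. It was at 118872 and 140707 CPM in THX pools, 107613 and 109231 CPM in Long pools and 86397 and 92709 CPM in Short pools, so the groups did not overlap, but no difference passed (log2 difference 0.26, 0.28 and 0.54 in THX against Long, Long against Short and THX against Short pools, adjusted p = 0.473, 0.342 and 0.0580 by edgeR). HR, a target of the thyroid hormone receptor, was at 3.36 and 2.76 CPM in THX pools, 23.7 and 23.4 CPM in Long pools and 25.6 and 25.3 CPM in Short pools. On a principal component analysis THX pool 2 and Short pool 1 lay at opposite ends of the first component, at −42.7 and 38.4, and THX pool 1 lay apart on the second, at 47.8.

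ATP1B2 was the subunit with a call, in THX against Short pools. This beta subunit, described in mouse as an adhesion molecule of glia, was at 372 and 390 CPM in THX pools, 284 and 290 CPM in Long pools and 274 and 284 CPM in Short pools. Both THX pools lay above all 4 pools of ewes with a thyroid, and those 4 pools lay within a narrow band. Pools of the groups did not overlap for 37.2% of all tested genes in THX against Long, 53.5% in Long against Short and 52.5% in THX against Short pools. These shares set 2 pools against 2, and no share was computed for 2 pools against the other 4. ATP1B2 averaged 381 ± 12.2 CPM in THX pools and 279 ± 7.19 CPM in Short pools (SD, n = 2 pools each), and it rose 1.37-fold in this comparison (log2 difference 0.45, SE 0.07, 95% interval 0.28 to 0.62, adjusted p = 0.0454 by edgeR). In the comparison with Long pools, which holds day length constant, the mean was 381 ± 12.2 CPM in THX pools against 287 ± 4.41 CPM in Long pools (SD, n = 2 pools each). That log2 difference was close in size, at 0.41 (SE 0.07, 95% interval 0.24 to 0.58), but missed the threshold (adjusted p = 0.11 by edgeR). The comparisons of THX with Long and with Short pools share the THX pools, so the second is no repeat of the first.

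Of the 4 subunits, ATP1B2 alone passed by edgeR, and in THX against Short pools alone, where 0.916% of all tested genes passed. None passed in THX against Long pools, where 0.283% of all tested genes did. In Long against Short pools no gene passed by edgeR (0% of 18019), although 2486 had an unadjusted p below 0.05. There DESeq2 called 159 genes and limma voom 0. Among all tested genes, 0.616% had a smaller p than ATP1B2 in THX against Long pools and 0.844% did in THX against Short pools.

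The call of ATP1B2 against Short pools was close to the threshold. With each of the 6 pools left out in turn, it was lost in every fit but that without THX pool 1. Long pools are not in this comparison, and each fit has fewer pools from which to estimate the spread. A lost call therefore does not show that the difference rested on the pool left out. The log2 difference itself stayed between 0.42 and 0.48 over these 6 fits. With total counts in place of TMM scaling it was 0.35 and missed the threshold (adjusted p = 0.0591). In THX against Long pools ATP1B2 passed by DESeq2 (log2 difference 0.41, adjusted p = 3.28e-05) and by edgeR with no filter on low counts (adjusted p = 0.0482). Those settings called 448 of 18019 and 204 of 23749 genes there, against 51 of 18019 by edgeR with the filter. The log2 difference of ATP1B2 against Long pools ran from 0.36 to 0.44 over all 15 alternatives.

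**Figure D1:**
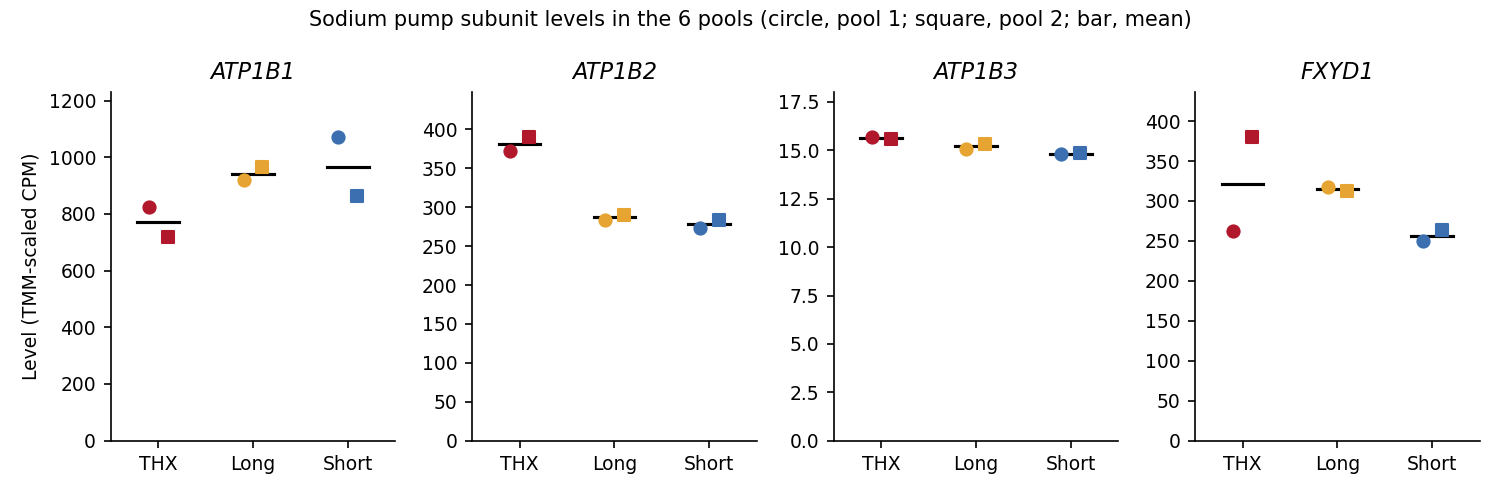
Level of each subunit in CPM (vertical axis, from 0) in the 2 pools of THX, Long and Short ewes, with pool 1 as a circle, pool 2 as a square and the group mean as a bar. For ATP1B2 the THX pools, at 372 and 390 CPM, lie above the other 4, which run from 274 to 290 CPM. For FXYD1 the THX pools lie far apart, at 263 and 379 CPM.

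ATP1B1, the usual beta subunit of epithelia, had values in the other direction. It was at 825 and 718 CPM in THX pools, 919 and 966 CPM in Long pools and 1070 and 862 CPM in Short pools. Both THX pools lay below the pools of ewes with a thyroid, but THX pool 1 and Short pool 2 differed little. The mean was 772 ± 75.7 CPM in THX pools, 943 ± 33.6 CPM in Long pools and 966 ± 147 CPM in Short pools (SD, n = 2 pools each). Neither difference passed, at a log2 difference of −0.29 against Long (SE 0.12, 95% interval −0.58 to 0.00, adjusted p = 0.552 by edgeR) and −0.32 against Short pools (SE 0.12, 95% interval −0.61 to −0.03, adjusted p = 0.187). The intervals in this report are not corrected for the number of genes tested, so an interval that leaves out 0 is not a call. Against Short pools the log2 difference was −0.15 without Short pool 1, the pool with the highest ATP1B1 level, and −0.47 without Short pool 2. In the table of reference genes ATP1B1 overlaps NME7, a member of the nucleoside diphosphate kinase family, and an unnamed gene with at most 7 counts in a pool. As the strand setting of the counting is not given, reads of the overlap cannot be assigned with certainty. NME7 had 1078 to 1867 counts in a pool, against 43278 to 90463 for ATP1B1, and its level was 23.5 and 28.1 CPM in THX pools, 24.2 and 23.1 CPM in Long pools and 21.1 and 21.5 CPM in Short pools.

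ATP1B3, a beta isoform found in many tissues, was nearly level. Its counts ran from 746 to 1251 in a pool, and its level was 15.7 and 15.6 CPM in THX pools, 15.1 and 15.3 CPM in Long pools and 14.8 and 14.9 CPM in Short pools. The pools of a group lay close together, and the groups did not overlap in any of the 3 comparisons. Such separation is common among all genes, as given above for ATP1B2. The log2 differences of ATP1B3 were 0.04, 0.04 and 0.08 in these comparisons (adjusted p = 0.979, 0.890 and 0.669 by edgeR). Their 95% intervals ran from 0.875- to 1.21-fold, 0.872- to 1.21-fold and 0.897- to 1.24-fold. With total counts in place of TMM scaling all 3 log2 differences lay below 0 and close to it, from −0.02 to −0.01. That scaling also moved the median of all tested genes, by −0.05, −0.05 and −0.10 in the 3 comparisons, which is about as far as it moved ATP1B3.

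FXYD1, or phospholemman, is the FXYD protein that kinases phosphorylate to release the pump from inhibition, best known from heart muscle and also described in choroid plexus. It was at 263 and 379 CPM in THX pools, 318 and 313 CPM in Long pools and 250 and 263 CPM in Short pools. Both Long pools lay above both Short pools, whereas the THX pools spanned the range of the other groups. Long pools averaged 315 ± 3.82 CPM and Short pools 257 ± 9.40 CPM (SD, n = 2 pools each), a log2 difference of 0.30 that did not pass (SE 0.16, 95% interval −0.08 to 0.67, adjusted p = 0.420 by edgeR). This was the largest of the 4 subunits' log2 differences between day lengths, since those of ATP1B1, ATP1B2 and ATP1B3 were −0.04, 0.04 and 0.04 (adjusted p = 0.914, 0.800 and 0.890). Differences between the subunits' responses were not tested.

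The THX pools differed 1.44-fold in FXYD1, and 16.4% of all tested genes had a larger gap between these pools. In consequence the comparisons of FXYD1 turned on which THX pool was kept. Against Long pools the log2 difference was 0.03 with both THX pools (SE 0.16, adjusted p = 0.992 by edgeR), 0.27 without THX pool 1 and −0.26 without THX pool 2. Against Short pools it was 0.32 with both (SE 0.16, 95% interval −0.05 to 0.70, adjusted p = 0.268 by edgeR). Without THX pool 1 it was 0.56, and without THX pool 2 it was 0.04. Each of these fits leaves 1 THX pool, so only the size is given. The other FXYD genes with enough counts, all of which encode small pump regulators, were also higher in THX pool 2. FXYD5 was at 23.1 and 29.5 CPM in THX pools 1 and 2, FXYD6 at 18.9 and 25.7 CPM and FXYD7 at 1.2 and 2.41 CPM. By contrast, THX pools differed 1.05-fold in ATP1B2, and their levels of ATP1B3 were 15.7 and 15.6 CPM.

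**Figure D2:**
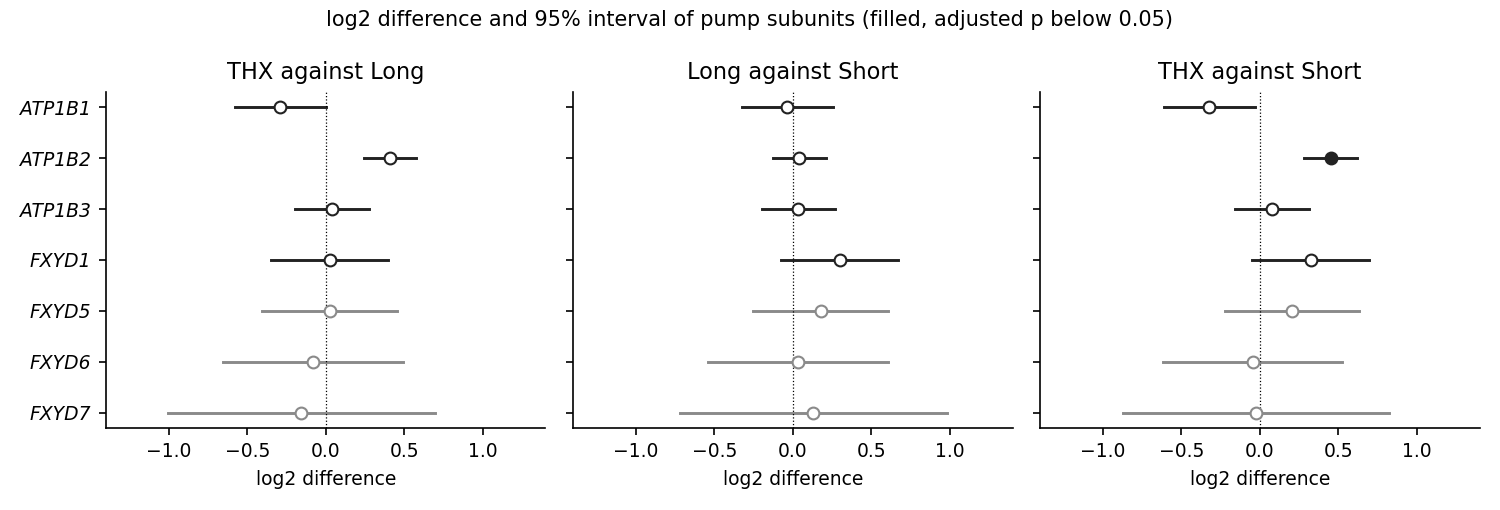
The log2 difference (horizontal axis) of each pump subunit gene in the 3 comparisons, with its 95% interval as a line, dark for ATP1B1, ATP1B2, ATP1B3 and FXYD1 and grey for other subunits. A filled point marks an adjusted p below 0.05, which ATP1B2 reached in THX against Short pools at 0.45. The intervals of FXYD7, which has few counts, are the widest.

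Among other beta and FXYD genes, ATP1B4 had 27 counts over all 6 pools, FXYD2 4, FXYD3 42 and FXYD4 15, which were too few to test. FXYD5, FXYD6 and FXYD7 had log2 differences from −0.16 to 0.20 over the 3 comparisons and did not pass.

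Ratios of the counts of 2 subunits within a pool do not depend on the scaling between pools. For each count of ATP1B1 there were 0.451 and 0.542 counts of ATP1B2 in THX pools, 0.309 and 0.300 in Long pools and 0.256 and 0.329 in Short pools. Both THX pools lay above the other 4. The mean log2 ratio was −1.02 in THX pools against −1.71 in Long and −1.78 in Short pools, a difference of 0.70 from Long and 0.77 from Short pools. The ratios are given as values, without a test. The ratio shows that ATP1B1 and ATP1B2 differed unequally between THX and the other pools, and its absolute size also reflects transcript length.

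Ratios with the other subunits followed. The log2 ratio of ATP1B3 to ATP1B1 was −5.72 and −5.52 in THX pools, −5.93 and −5.98 in Long pools and −6.18 and −5.86 in Short pools, with both THX pools highest. Relative to ATP1B2, the same gene was lowest in THX pools, with a log2 ratio of −4.57 and −4.64 in THX pools, −4.23 and −4.24 in Long pools and −4.21 and −4.26 in Short pools. Long and Short pools overlapped in both of these ratios. For each count of ATP1B1 there were 0.319 and 0.528 counts of FXYD1 in THX pools, 0.346 and 0.324 in Long pools and 0.234 and 0.305 in Short pools. THX and Long pools overlapped here, and Short pools were lowest. The log2 ratio of FXYD1 to ATP1B2 was −0.50 and −0.04 in THX pools, 0.16 and 0.11 in Long pools and −0.13 and −0.11 in Short pools. Here Long pools lay above the pools of both other groups.

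**Figure D3:**
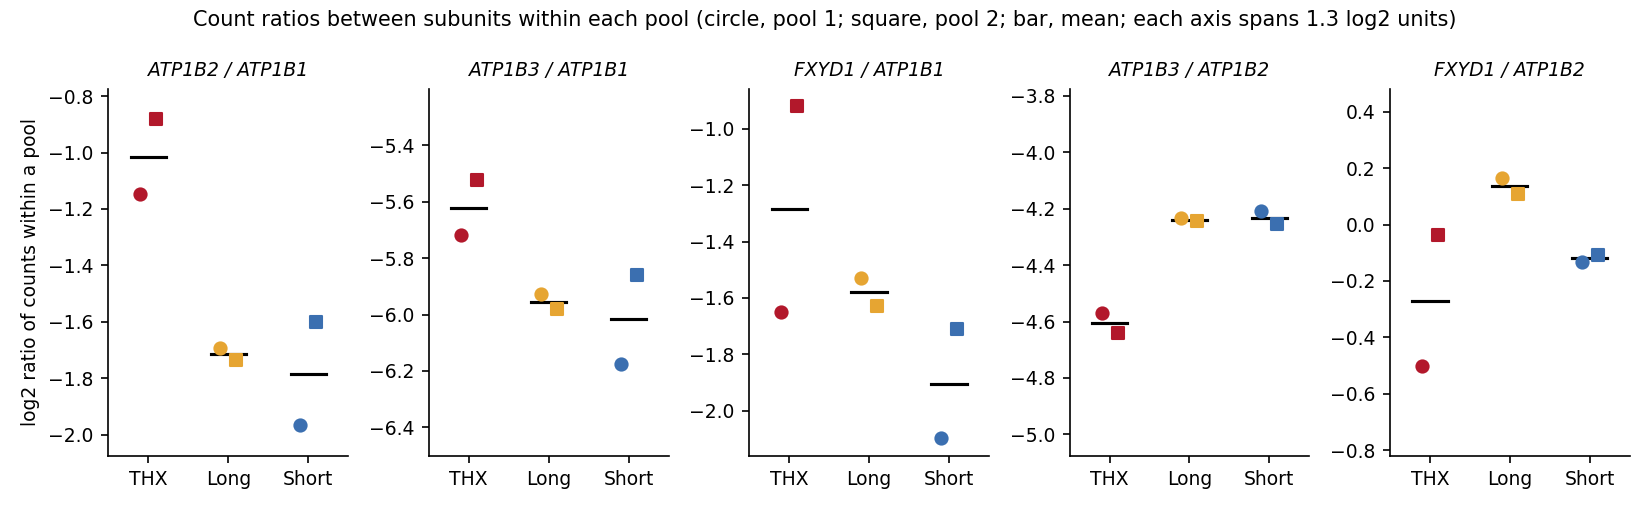
The log2 ratio of the counts of 2 subunits within each pool (vertical axis), with pool 1 as a circle, pool 2 as a square and the group mean as a bar. For ATP1B2 over ATP1B1 the THX pools, at −1.15 and −0.88, lie above the other 4 pools, which run from −1.97 to −1.60.

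The courses of the subunits over the 6 pools were compared after each log2 level was centred on its own mean. ATP1B1 and ATP1B2 differed most among the 6 pairs of subunits, by a root mean square difference of 0.37 log2 units, and ATP1B2 and ATP1B3 least, by 0.18. The median difference from named genes with a mean of at least 10 CPM was 0.21 for ATP1B1, 0.23 for ATP1B2 and 0.12 for ATP1B3. This measure takes in the size of the variation as well as its direction. ATP1B2 and ATP1B3 were both highest in THX and lowest in Short pools, but ATP1B3 varied less (SD 0.03 against 0.22 log2 units over the 6 pools). Among 9996 named genes with a mean of at least 10 CPM, those closest to ATP1B2 were PC, the pyruvate carboxylase that refills the citric acid cycle, NEBL, an actin-binding protein, and SSBP3, a transcriptional cofactor, at 0.03, 0.04 and 0.04 log2 units. The genes closest to ATP1B1 were RAP2A, a small GTPase, TWF1, an actin-binding protein, and TUBB4A, a tubulin, at 0.04 to 0.05. For FXYD1 they were UBE2E2, a ubiquitin-conjugating enzyme, CREM, a cAMP-responsive transcription factor, and NBL1, a BMP antagonist, each at 0.04. ATP1B3 was closest to RBM10, DAP3 and HSF2, at about 0.01, as its own level hardly varied. With 6 pools and so many genes searched close matches are common, and these values describe likeness in these pools and nothing further.

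Regulators of the pump were then examined for the same comparisons. Of 16 kinases, phosphatases and steroid pathway genes, 1 fell in THX against Long pools, 1 fell in THX against Short pools and none passed in Long against Short pools. Of all tested genes, 0.283%, 0.916% and 0% passed in these comparisons. The gene that fell was SGK1 in both cases. SGK1, an aldosterone-induced kinase that raises sodium transport, was at 262 and 295 CPM in THX pools, 464 and 504 CPM in Long pools and 511 and 494 CPM in Short pools. Its log2 difference was −0.80 against Long (SE 0.09, adjusted p = 0.0272 by edgeR) and −0.85 against Short pools (SE 0.09, adjusted p = 0.0209 by edgeR). The first call was lost without Long pool 1 or 2 (adjusted p by edgeR 0.193 and 0.265), Short pool 1 or 2 (0.0642 and 0.0634) or THX pool 1 (0.0785). The second was lost without Long pool 1 or 2 (0.0792 and 0.0821) or Short pool 1 or 2 (0.139 and 0.0754). With only the 4 pools compared both calls were lost (adjusted p = 0.0674 against Long and 0.0785 against Short pools by edgeR). Over all 15 alternatives the log2 difference of SGK1 ran from −0.88 to −0.72 against Long and from −0.95 to −0.77 against Short pools. PPP1R1B, an inhibitor of protein phosphatase 1, had a log2 difference of 0.51 in THX against Short pools (adjusted p = 0.0552) and 0.30 in THX against Long pools (adjusted p = 0.323). The median log2 difference of the 16 was −0.04, −0.07 and −0.10 in THX against Long, Long against Short and THX against Short pools, beside 0.00, −0.00 and −0.01 for all tested genes.

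Scaffold proteins that hold the pump in the membrane, such as ankyrins, spectrins and adducins, and its other partners had no member past the test among 16 in any comparison. SPTBN1, a beta spectrin, was at 1790 and 1532 CPM in THX pools, 1775 and 1875 CPM in Long pools and 2369 and 2071 CPM in Short pools, with a log2 difference of −0.42 in THX against Short pools (adjusted p = 0.107). NKAIN1, a membrane protein that interacts with the beta subunit in mouse and fly, had log2 differences of −0.57 in THX against Long (adjusted p = 0.647) and −0.68 in THX against Short pools (adjusted p = 0.225). Of 12 other cation pumps of the same enzyme family, none passed. ATP2A3, a calcium pump of the endoplasmic reticulum, was at 73.5 and 67.8 CPM in THX pools, 108 and 91.2 CPM in Long pools and 99.4 and 104 CPM in Short pools (log2 difference −0.49 against Long, adjusted p = 0.171, and −0.52 against Short pools, adjusted p = 0.0659).

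Channels and cotransporters that move ions and water across the same epithelium also had no member past the test, among 21 tested. Their median log2 difference was −0.10 in THX against Long, −0.19 in Long against Short and −0.30 in THX against Short pools, with 15, 17 and 16 of the 21 below 0. The median of all tested genes was 0.00, −0.00 and −0.01 in these comparisons. Whether the list as a whole differed from other genes was not tested. CLIC6, a chloride channel protein of the choroid plexus, was at 879 and 867 CPM in THX pools, 721 and 679 CPM in Long pools and 667 and 653 CPM in Short pools. As for ATP1B2, both THX pools lay above the other 4, without passing (log2 difference 0.32 against Long, adjusted p = 0.222, and 0.40 against Short pools, adjusted p = 0.0615, by edgeR). DESeq2, which called more genes than edgeR in each comparison, called CLIC6 in both (adjusted p = 0.00283 and 9.17e-06). KCNA1 and KCNJ13, potassium channels that return potassium brought in by the pump, had log2 differences of −0.46 and −0.33 in THX against Long pools (adjusted p = 0.322 and 0.432) and of −0.74 and −0.45 in THX against Short pools (adjusted p = 0.0580 and 0.0992). SLC4A10 and SLC4A5, sodium bicarbonate carriers, had log2 differences of −0.73 and −0.58 in Long against Short pools (adjusted p = 0.342 each).

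Other cell types of the tissue also express pump subunits, and in bulk RNA fewer cells of a type and less RNA per cell cannot be told apart. The 12 epithelial markers found beside TTR summed to 8637 and 9292 CPM in THX pools, 9099 and 9269 CPM in Long pools and 9610 and 9028 CPM in Short pools, a sum in which the groups overlapped. The mean of the centred log2 levels of all 13 epithelial markers, in which each gene counts alike, did not overlap between groups, at −0.11 and −0.07 in THX pools, 0.01 and 0.00 in Long pools and 0.11 and 0.06 in Short pools. Of these 13, none rose and 2 fell in THX against Long, none passed in Long against Short, and 1 rose and 3 fell in THX against Short pools. Of all tested genes, 0.283%, 0% and 0.916% passed in these comparisons. Named after their values were seen, the serotonin receptor HTR2C (log2 difference −0.73 and −1.39 against Long and Short) and the kinase scaffold CAB39L (−0.63 and −0.82) fell in both comparisons, and in THX against Short pools KL, or klotho, fell (−0.85) and IGFBP2, an IGF-binding protein, rose (1.01). The level of TTR itself, like that of ATP1B2, was highest in THX pools. The part of the epithelial markers in the values of the subunits was not tested. All 9 astrocyte markers, listed because glia express ATP1B2, summed to 372 and 326 CPM in THX pools, 354 and 345 CPM in Long pools and 374 and 372 CPM in Short pools. Without GJA1, the most abundant of them, they summed to 228 and 183 CPM in THX pools, 186 and 172 CPM in Long pools and 170 and 188 CPM in Short pools. None of the 8 astrocyte markers tested passed, and 6 of them had log2 differences above 0 in THX against Long (median 0.15) and in THX against Short pools (median 0.06). The medians of all tested genes there were 0.00 and −0.01. The defining water channel AQP4 was at 0.0452 to 0.179 CPM. The 7 ependymal markers summed to 648 and 720 CPM in THX pools, 581 and 553 CPM in Long pools and 604 and 538 CPM in Short pools, with both THX pools highest. Without FOXJ1, a transcription factor of motile cilia, the sums overlapped, at 216 and 224 CPM in THX pools, 187 and 230 CPM in Long pools and 273 and 207 CPM in Short pools. The 8 oligodendrocyte markers summed to 109.4 and 108.5 CPM in THX pools, 111 and 123 CPM in Long pools and 120 and 121 CPM in Short pools, with both THX pools lowest. Without CNP, the most abundant of them, THX and Long sums overlapped, at 77.5 and 71.8 CPM in THX pools and 73.8 and 87.3 CPM in Long pools. Their mean centred log2 level was lowest in both THX pools, at −0.35 and −0.19. The 7 fibroblast markers summed to 441 and 582 CPM in THX pools, 806 and 735 CPM in Long pools and 657 and 846 CPM in Short pools, with both THX pools lowest. Of the 6 tested, LUM, a matrix proteoglycan, fell in THX against Long (log2 difference −0.74) and in THX against Short pools (−0.60). The 8 markers of smooth muscle and pericytes summed to 902 and 1054 CPM in THX pools, 1098 and 1056 CPM in Long pools and 1097 and 1410 CPM in Short pools. The 5 striated muscle markers found, listed because such muscle is rich in FXYD1, summed to 1.37 and 1.54 CPM in THX pools, 1.41 and 6.90 CPM in Long pools and 1.10 and 1.55 CPM in Short pools. The 8 endothelial markers summed to 703 to 708 CPM in THX pools, 681 to 736 CPM in Long pools and 662 to 811 CPM in Short pools. The 9 neuronal markers found beside SNAP25, which the tissue holds at 282 to 324 CPM, summed to 15.1 and 16.1 CPM in THX pools, 11.9 and 10.5 CPM in Long pools and 8.16 and 12.9 CPM in Short pools. Most of that sum was RBFOX3, at 11.5 and 14.4 CPM in THX pools, 9.28 and 7.71 CPM in Long pools and 5.58 and 10.4 CPM in Short pools. The mean centred log2 level of the 9 neuronal markers tested, SNAP25 among them, was 0.12 and −0.33 in THX pools. It was 0.09 and 0.13 in Long pools and −0.00 and −0.01 in Short pools, so THX pools spanned the other groups on this measure. No marker found in the table was at 0 in all 6 pools. The part of glial, ependymal and stromal cells in the values of the subunits was not tested.

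**Figure D4:**
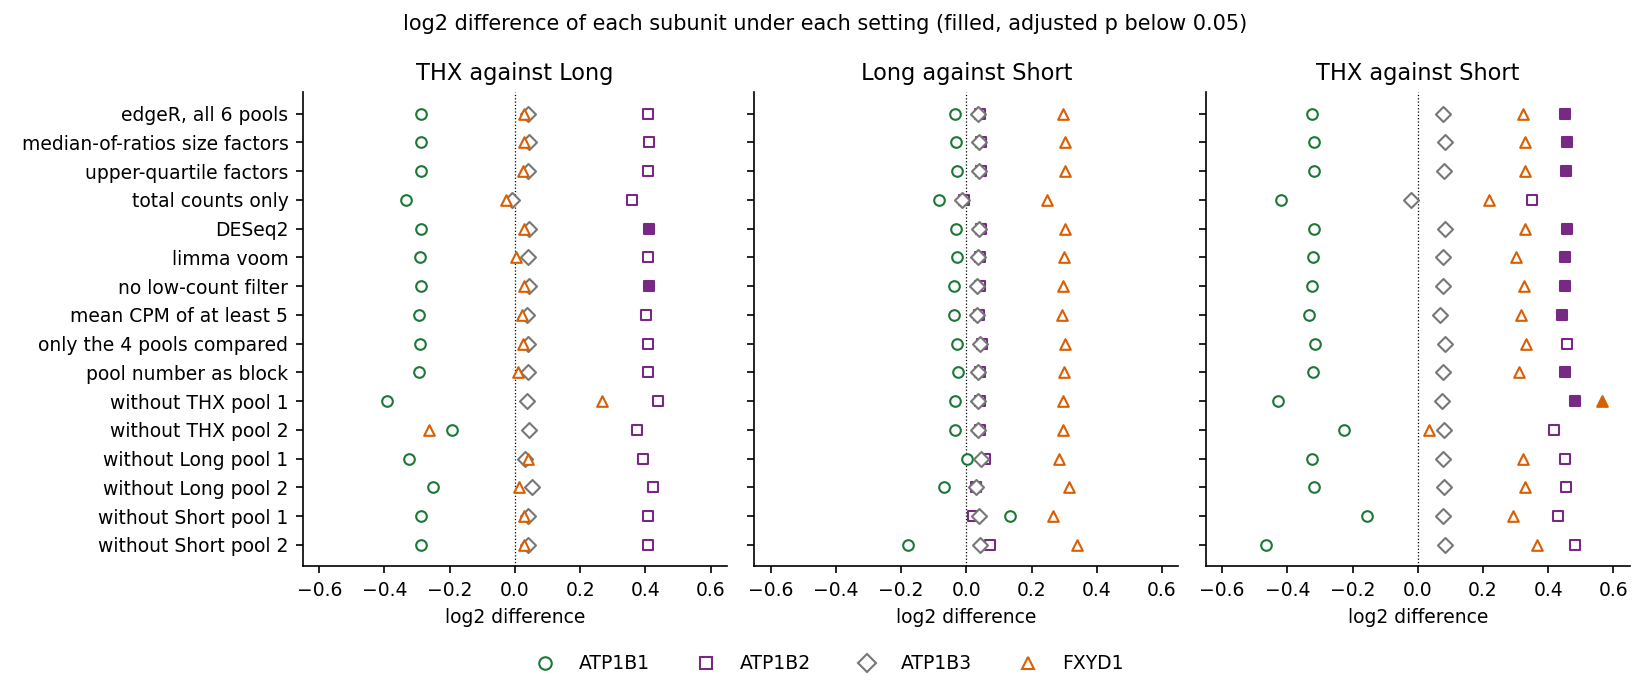
The log2 difference (horizontal axis) of each subunit in the 3 comparisons under edgeR with all 6 pools and under each of 15 alternatives (vertical axis), with a filled symbol for an adjusted p below 0.05. ATP1B2 stays between 0.35 and 0.48 in THX against Short pools and between 0.36 and 0.44 in THX against Long pools. FXYD1 moves most, between −0.26 and 0.27 in THX against Long pools, when a THX pool is left out.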

How the data were processed

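The table holds the authors' deposited counts of reads per gene, as integers with no normalisation, in 6 columns that were all used. Per the labels, RNA came from TriReagent extraction and libraries from a stranded mRNA ligation kit. Tools named in the submitters' processing notes are TopHat2 2.1.1, featureCounts 2.0.0, SAMtools 1.9, bcl2fastq 2.20, MultiQC 1.9 and FastQC 0.11.8. Genome build, annotation and strand setting are not stated, and no sequences were used. Of 33609 identifiers, 28100 were found in a table of the sheep assembly ARS-UI_Ramb_v3.0. It was used for names and, by gene positions, for overlapping and neighbouring genes.

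In R 4.3.3, edgeR 4.0.16 filtered genes by its default for the 3 groups (18019 kept), applied TMM scaling and fitted 1 mean per group across the 6 pools, with 3 residual and 3.96 prior degrees of freedom. SE is the log2 difference divided by the root of F. Counts simulated with the spread fitted to these data were used to check that log2 differences were recovered. No check was set on false or missed calls. The 2 pools of a group differed by 16.2 to 71.8 times the variance of counting alone. Alternatives used DESeq2 1.42.0, limma voom 3.58.1, other scalings, filters and pools. The genes named are all beta and FXYD genes, up to 3 genes with the lowest p of each other list in a comparison, TTR, HR, and 3 genes closest to each subunit in pattern. Some genes that this rule takes are not reported here. NME7 and the markers named singly were added after their values were seen. The subunits and lists were chosen with earlier results of these data known. Figures used Python 3.11.15 and matplotlib 3.10.9.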

Additional observations from a re-analysis of the deposited data

How the results depend on the processing

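Of 180 log2 differences (4 subunits, 3 comparisons, 15 alternatives), 162 kept their direction and their side of the threshold. The call of ATP1B2 in THX against Short pools was lost with total counts (0.35), with only the 4 pools compared (0.46, adjusted p = 0.142) and on omission of any pool but THX pool 1 (0.42 to 0.48 over the 6 omissions). In THX against Long pools ATP1B2 passed by DESeq2 (0.41) and with no low-count filter (0.41). For FXYD1 the log2 difference in THX against Short pools ran from 0.0351 to 0.56 over the 6 omissions. Directions turned for values near 0. With total counts, which shifted the median of all genes by −0.05, −0.05 and −0.10 in THX against Long, Long against Short and THX against Short pools, ATP1B3 was at −0.00769, −0.0143 and −0.0220. FXYD1 was then at −0.0273 in THX against Long and ATP1B2 at −0.00833 in Long against Short pools. Omission of 1 pool gave −0.26 to 0.27 for FXYD1 in THX against Long and −0.18 to 0.13 for ATP1B1 in Long against Short pools, where it was 0.000764 without Long pool 1. SGK1 and CLIC6 were put through the same alternatives after their values were seen. In Long against Short pools omission of 1 pool gave −0.11 to 0.00451 for SGK1.

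The number of genes called in THX against Long pools was 51 by edgeR, 448 by DESeq2, 204 with no filter, 22 with the 4 pools compared and 2 to 37 on omission of 1 pool. In Long against Short pools it was 0 by edgeR, 159 by DESeq2 and 0 to 4 on omission of 1 pool. In THX against Short pools it was 165 (57 higher, 108 lower), 259 with total counts (49 higher, 210 lower), 1761 by DESeq2, 908 with no filter, 11 with the 4 pools compared and 10 to 1083 on omission of 1 pool. The cause of these shifts was not tested, beyond the fewer pools. With the pool number as a replicate block 392 genes were called in THX against Short, 48 in THX against Long and 0 in Long against Short pools, and the block changed no call of the 4 subunits. The labels do not tie pools of the same number together, and the deviations of same-numbered pools correlated at 0.07, −0.06 and 0.21 for THX and Long, Long and Short, and THX and Short pools, so the numbers were not taken as pairs. With 2 pools per group, the 95% interval of FXYD1 spans 0.786- to 1.32-fold in THX against Long pools.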
